A study of Homo sapiens with 12 samples.

Results

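The OVOL and EMT transcription factors are the genes that hold gastric epithelial cells in an epithelial state or drive them out of it. The set holds 10 of the 34595 genes with a value, and its members were chosen by name. They are the epithelial factors OVOL1, OVOL2 and GRHL2, the inducers of epithelial-to-mesenchymal transition (EMT) SNAI1, SNAI2, ZEB1, ZEB2 and TWIST1, and the mesenchymal genes VIM and FN1. Each was read across 6 sorted populations, the CD133+ and CD133- fractions of the established human gastric cancer lines KATO-III, SNU-216 and SNU-601, with 2 arrays per population and 12 arrays in all. CD133, the product of PROM1, is a surface glycoprotein used to isolate putative cancer stem cells, and the study asked how cells with and without it differ. All lines were grown in the same medium with calf serum and received no other agent. The CD133+ fraction was the brightest 10% of cells after staining and the CD133- fraction the dimmest 6%. The labels name no separate cultures of a line, the text deposited with the series names SNU201 where the array labels have SNU-216, and whether the 2 arrays of a population came from separate sorts was not given in the sources used here. The p-values therefore cover the spread between arrays only.

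In EMT, epithelial cells lose their junctions and polarity and take on a mesenchymal shape and motility. OVOL1 and OVOL2 are zinc finger repressors that keep EMT inducers, ZEB1 among them, off in epithelia, and GRHL2 is a grainyhead factor that activates CDH1 and other junction genes and also represses ZEB1. SNAI1, SNAI2, ZEB1 and ZEB2 are zinc finger repressors that bind E-box motifs in the promoters of junction genes, and TWIST1 is a basic helix-loop-helix factor. VIM encodes the intermediate filament vimentin and FN1 the matrix protein fibronectin, which are common markers of mesenchymal cells.

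The E-box that SNAI and ZEB factors are known to bind reads CACCTG, or CAGGTG on the other strand. It was searched on both strands in the 250 bases upstream of the gene starts in RefSeq (GRCh38.p14), where 17.5% of 35116 windows hold it. The window of CLDN7, a tight junction claudin, is shown because it holds 4 such motifs, in capitals, and because CLDN7 was measured on these arrays beside SNAI2. The window of VIM, a member, is shown beside it and holds 0. CLDN7 was chosen after its values were seen, and a motif is a match of letters, not a bound site. A second CLDN7 window in the table holds 0, as do the single windows of FN1, ZEB2, CLDN4 and KRT8, and 2 of 7 ZEB1 windows hold the motif.
CLDN7, chr17:7262479-7262728, minus strand: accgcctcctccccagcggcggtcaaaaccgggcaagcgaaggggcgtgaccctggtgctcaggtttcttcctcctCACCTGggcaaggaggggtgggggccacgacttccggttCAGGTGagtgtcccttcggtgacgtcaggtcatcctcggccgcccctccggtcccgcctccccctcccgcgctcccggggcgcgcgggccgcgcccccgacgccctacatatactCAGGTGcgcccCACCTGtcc
VIM, chr10:17227991-17228240, plus strand: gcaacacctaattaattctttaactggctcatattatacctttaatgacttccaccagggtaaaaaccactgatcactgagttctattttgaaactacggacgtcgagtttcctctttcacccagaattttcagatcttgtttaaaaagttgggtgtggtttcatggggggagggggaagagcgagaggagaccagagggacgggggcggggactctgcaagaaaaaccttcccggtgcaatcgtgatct

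Values are quantile-normalized intensities on a linear scale with a background subtracted, so a gene with no signal scatters around 0. Before log2 was taken, any lower intensity was raised to 32.7, which is as far above 0 as the 1st percentile of the values lies below it, and a gene was tested where 2 or more arrays exceeded this floor. A gene is called below where its adjusted p from limma was under 0.05. Where arrays are said not to overlap, the share of all genes that separate likewise is not given. With 2 arrays per population such a separation is a description only. Between 16320 and 16474 genes exceeded the floor on an array. PROM1, the gene of the sorted antigen, was 2.15-fold to 4.05-fold higher in CD133+ than in CD133- cells of each line. Of 8 markers of gastrointestinal epithelium 7 exceeded the floor on all 12 arrays, and CEACAM5 did on 8 and was under it in SNU-216, with sums between 49446.4 and 60817.3 per array. None of 5 endothelial markers did, nor did PTPRC and CD3E of the 6 leukocyte markers. Of 8 fibroblast markers 3 did, and DCN, COL3A1, PDGFRB, THY1 and FAP were under the floor on all 12 arrays.

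Of the 10 members, OVOL2, GRHL2 and VIM exceeded the floor on all 12 arrays and SNAI1, ZEB1 and FN1 on none. Another 3, OVOL1, SNAI2 and TWIST1, exceeded it in some lines, and these 6 members were tested. ZEB2 exceeded it on 1 array and was not tested. Among the 5 inducers, SNAI2 and TWIST1 exceeded it on every array of SNU-216. In the other 2 lines the sole inducer of the 5 above the floor was TWIST1, on 1 KATO-III array.

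SNAI2, the E-box repressor also called Slug, had intensities of 3128.2 and 3037.5 in SNU-216 CD133+ cells and 3033.6 and 2749.7 in SNU-216 CD133- cells. In KATO-III it had 16.6 and 6.49 in CD133+ and -3.81 and 2.58 in CD133- cells. In SNU-601 it had 3.23 and -8.62 in CD133+ and -6.42 and -6.01 in CD133- cells. The 4 SNU-216 arrays stood apart from the 8 others, all of which were under the floor. SNAI2 was at least 91.3-fold higher in SNU-216 than in KATO-III and at least 91.3-fold higher than in SNU-601. It met the filter through its SNU-216 arrays alone, so this is a description with no test. Between the fractions of SNU-216 its log2 difference, CD133+ minus CD133-, was 0.09 ± 0.0988 (SE, limma adjusted p = 0.585), with a 95% confidence interval of -0.13 to 0.32, although the lowest CD133+ array (3037.5) lay just above the highest CD133- array (3033.6).

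TWIST1 had intensities of 221.3 and 257.6 in SNU-216 CD133+ cells and 676.0 and 581.8 in SNU-216 CD133- cells. The arrays of the fractions did not overlap, and TWIST1 was 2.63-fold lower in the CD133+ fraction (log2 difference -1.39 ± 0.157 SE, limma adjusted p = 0.000274). Fitted by limma on the 4 SNU-216 arrays alone, the adjusted p was 0.0386. In KATO-III it had 13.2 and 42.3 in CD133+ and 4.27 and 14.1 in CD133- cells, and in SNU-601 it had 0.143 and -23.4 in CD133+ and -2.65 and 4.02 in CD133- cells. The arrays of these 2 lines were under the floor except for 1 of KATO-III CD133+. Its level in SNU-216 was 11.1-fold that in KATO-III with values under the floor set to it, and at least 11.8-fold that in SNU-601. These values too are given with no test, since the SNU-216 arrays carried TWIST1 through the filter. TWIST1 and SNAI2 thus had the same line in common, and their fraction differences in that line were -1.39 and 0.09 on the log2 scale. Whether these 2 genes differ from one another in this was not tested.

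The remaining inducers gave no value above the floor in KATO-III or SNU-601. SNAI1 lay between -42.9 and 11.3 on the 12 arrays, with a median of -20.4. ZEB1 lay between -41.0 and -3.61, with a median of -22.7. ZEB2 lay between -17.7 and 35.3, and its highest value, on the second array of SNU-216 CD133+, was the only one above the floor. FN1 lay between -11.9 and 5.06. At this background no difference in these 4 genes could be detected, which does not show that their mRNA was absent.

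**Figure D1:**
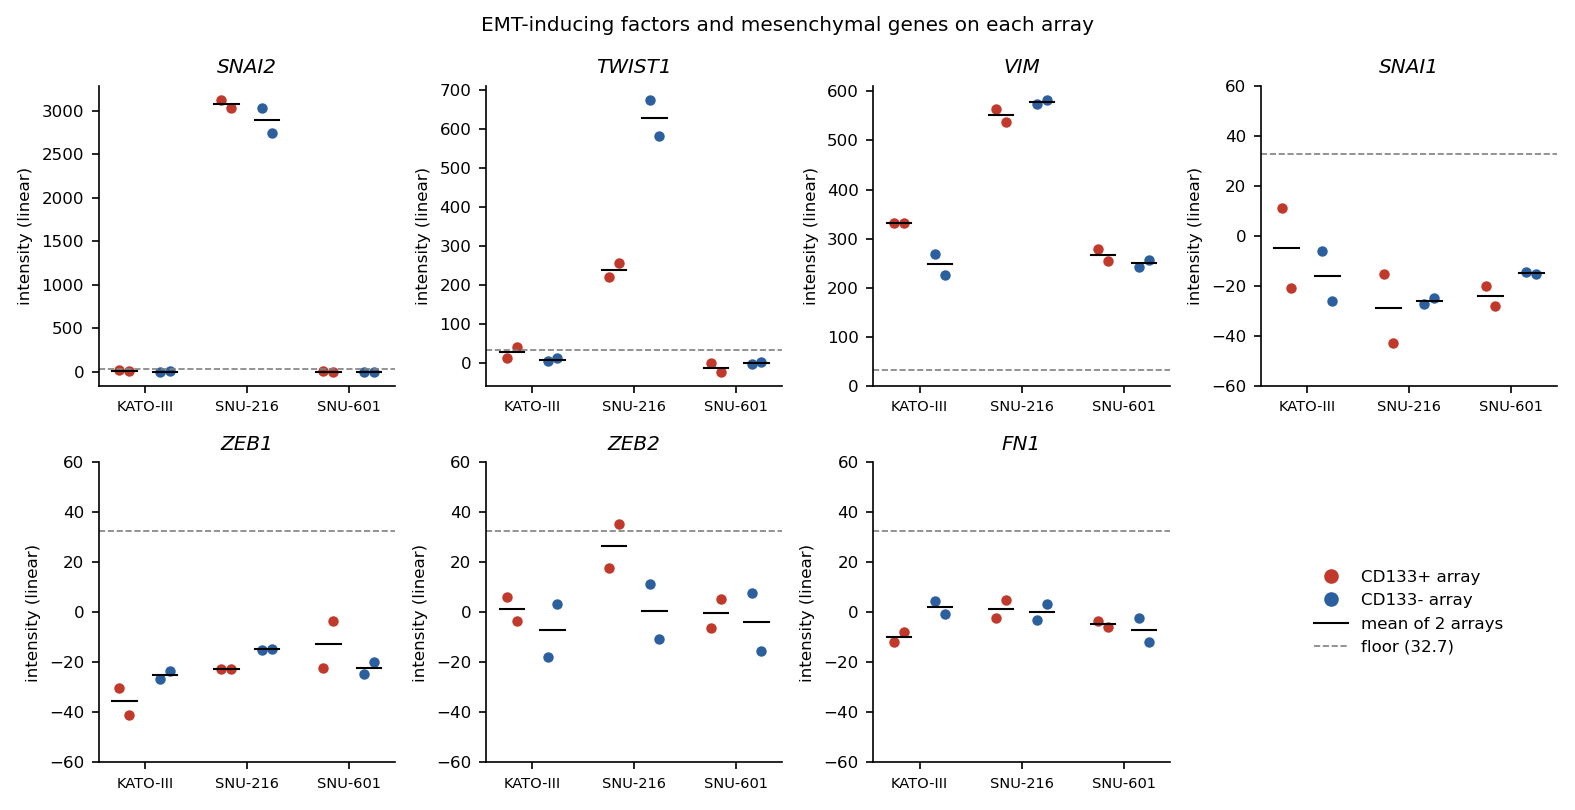
Linear intensity (vertical axis) of the EMT inducers and mesenchymal genes on each array of KATO-III, SNU-216 and SNU-601, with CD133+ arrays in red, CD133- arrays in blue, the mean of 2 arrays as a bar and the floor of 32.7 as a dashed line; vertical scales differ between panels. SNAI2 and TWIST1 stand above the floor on all 4 SNU-216 arrays, VIM is above it everywhere, and SNAI1, ZEB1 and FN1 lie under it on all 12 arrays.

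VIM had intensities of 564.5 and 537.6 in SNU-216 CD133+ cells and 574.7 and 583.3 in SNU-216 CD133- cells. In KATO-III it had 332.6 and 332.5 in CD133+ and 268.0 and 226.6 in CD133- cells. In SNU-601 it had 278.6 and 254.8 in CD133+ and 242.7 and 256.7 in CD133- cells. All SNU-216 arrays were above those of the other lines. VIM was 1.97-fold higher in SNU-216 than in KATO-III (limma adjusted p = 8.98e-07) and 2.19-fold higher than in SNU-601 (adjusted p = 3.09e-07). KATO-III and SNU-601 differed by 0.15 on the log2 scale (adjusted p = 0.0801), which became a call when the second KATO-III CD133- array was left out (0.21, adjusted p = 0.0163) or the arrays were centred on their medians (0.18, adjusted p = 0.046).

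In the order of the populations, both SNU-216 fractions came first for VIM and did not differ beyond their spread (adjusted p = 0.682). KATO-III CD133+ followed, below SNU-216 CD133+ by 0.73 (adjusted p = 0.000114) and above SNU-601 CD133+ by 0.32 on the log2 scale (adjusted p = 0.0164). SNU-601 CD133+, SNU-601 CD133- and KATO-III CD133- closed the order with no called difference between neighbours. Between the fractions of KATO-III, VIM was 1.35-fold higher in CD133+ cells (log2 difference 0.43 ± 0.0935 SE, adjusted p = 0.00567), and the arrays did not overlap. The differences in SNU-216 (-0.07, adjusted p = 0.682) and SNU-601 (0.09, adjusted p = 0.606) were not called. LUM, a fibroblast marker and matrix proteoglycan named after its values were seen, ran the other way in KATO-III, at 64.4 and 91.6 in CD133+ and 743.3 and 782.5 in CD133- cells. The sum of the 8 fibroblast markers was 79.6 to 82.0 and 737.6 to 793.2 in these fractions. These sums lay close to the LUM means of 78.0 and 762.9, so they add little to LUM itself. COL1A1, the other tested fibroblast marker and also named after its values were seen, had the direction of VIM. Its means were 59.2 and 23.9 (log2 difference 0.84, limma adjusted p = 0.00977), the lower of them under the floor. DCN was under the floor in both fractions.

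OVOL2 had intensities of 3844.5 and 4093.9 in KATO-III CD133+ cells and 4713.6 and 5368.6 in KATO-III CD133- cells. In SNU-216 it had 3347.8 and 3637.9 in CD133+ and 5968.0 and 5932.2 in CD133- cells. In SNU-601 it had 4917.3 and 4661.0 in CD133+ and 5081.3 and 4990.3 in CD133- cells. The CD133+ arrays were below the CD133- arrays in every line, a description for which the share of all genes is not given. OVOL2 was 1.7-fold lower in CD133+ cells of SNU-216 (log2 difference -0.77 ± 0.0686 SE, limma adjusted p = 7.97e-05) and 1.27-fold lower in those of KATO-III (-0.34 ± 0.0686 SE, adjusted p = 0.00382). In SNU-601 the difference was -0.07 ± 0.0686 (adjusted p = 0.578), with a 95% confidence interval of -0.23 to 0.08. The difference in SNU-216 was larger than that in KATO-III by 0.43 on the log2 scale (adjusted p = 0.00918, where 32% of all tested genes were called). It was larger than that in SNU-601 by 0.70 (adjusted p = 0.000895, where 28.2% were called). KATO-III and SNU-601 were not called apart (adjusted p = 0.0673, where 30.1% were called).

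Over the 3 lines OVOL2 was the only member called between the fractions, 1 of 6 tested where 4.73% of all 20147 tested genes were called (log2 difference -0.40 ± 0.0977 SE, adjusted p = 0.0438). The study had picked OVOL2 on these arrays, so its direction is not independent evidence. The call was lost without any single array of KATO-III or SNU-216, 8 arrays in all (adjusted p between 0.0781 and 0.103), and kept without any single array of SNU-601. Averaging the 2 arrays of each population first left no call (adjusted p = 0.796). That setting called 0 of the 20147 genes (992 at an unadjusted p under 0.05), and with population as a random block only PROM1 was called, so the calls over the lines given here for other genes were made with the 2 arrays counted as independent.

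By level, OVOL2 was highest in SNU-216 CD133- cells, above SNU-601 CD133- by 0.24 on the log2 scale (adjusted p = 0.0148), and lowest in SNU-216 CD133+ cells, below KATO-III CD133+ by 0.18 (adjusted p = 0.0444). The line with SNAI2 and TWIST1 above the floor therefore held both ends of the OVOL2 order. SNU-601 CD133-, KATO-III CD133- and SNU-601 CD133+ lay between these ends with no called difference between neighbours. Averaged over the fractions, OVOL2 differed between KATO-III and SNU-216 by -0.03 (adjusted p = 0.643) and between SNU-216 and SNU-601 by -0.11 (adjusted p = 0.0912). The latter became a call without either KATO-III CD133- array (-0.11, adjusted p = 0.0447 in both fits). KATO-III was 1.1-fold below SNU-601 (adjusted p = 0.037). This call was lost when any of 7 arrays was left out, namely the first KATO-III array of either fraction, either SNU-216 CD133- array, the first SNU-601 CD133+ array or either SNU-601 CD133- array (log2 difference -0.14 to -0.09, adjusted p 0.0548 to 0.119).

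OVOL1 had intensities of 34.0 and 48.7 in KATO-III CD133+ and 69.4 and 51.7 in KATO-III CD133- cells. In SNU-216 it had 21.1 and 10.9 in CD133+ and 21.2 and 14.7 in CD133- cells, all under the floor. In SNU-601 it had 131.2 and 138.8 in CD133+ and 150.3 and 155.1 in CD133- cells. The lines did not overlap, with SNU-601 above KATO-III and KATO-III above SNU-216. OVOL1 was 2.91-fold higher in SNU-601 than in KATO-III (limma adjusted p = 8.1e-06) and at least 4.39-fold higher than in SNU-216. KATO-III was at least 1.51-fold above SNU-216, a difference that a floor of 100 removes because both lines then lie at the floor. OVOL1 met the filter through KATO-III and SNU-601 alone, so its comparisons with SNU-216 are given with no test.

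Between the fractions OVOL1 was 1.47-fold lower in CD133+ cells of KATO-III (log2 difference -0.56 ± 0.194 SE, limma adjusted p = 0.0478). This value was at the edge of the threshold, and leaving out an array kept the call only for the second KATO-III array of either fraction. The other 10 fits gave log2 differences between -0.56 and -0.3 (adjusted p 0.0636 to 0.296), and the lowest sizes came without the first KATO-III CD133+ array (-0.3, adjusted p = 0.296) and the first KATO-III CD133- array (-0.35, adjusted p = 0.274). In SNU-601 the difference was -0.18 (adjusted p = 0.649), although its 2 fractions did not overlap.

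GRHL2 had intensities of 2135.5 and 2073.4 in SNU-216 CD133+ cells and 1693.8 and 1546.6 in SNU-216 CD133- cells. In SNU-601 it had 485.8 and 496.4 in CD133+ and 639.8 and 678.5 in CD133- cells. In KATO-III it had 300.2 and 351.8 in CD133+ and 384.1 and 382.1 in CD133- cells. No 2 populations overlapped, and all 5 neighbours in the order were called apart, SNU-216 first, SNU-601 next and KATO-III last. GRHL2 was 5.23-fold higher in SNU-216 than in KATO-III (limma adjusted p = 5.38e-10) and 3.24-fold higher than in SNU-601 (adjusted p = 5.84e-09). SNU-601 was 1.61-fold above KATO-III (adjusted p = 4.86e-06). GRHL2, an epithelial factor, was thus highest in the line where SNAI2, TWIST1 and VIM were highest, and OVOL1 was under the floor there.

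The direction of the GRHL2 difference between fractions turned with the line. It was 1.3-fold higher in CD133+ cells of SNU-216 (log2 difference 0.38 ± 0.0805 SE, limma adjusted p = 0.00734) and 1.34-fold lower in those of SNU-601 (-0.42 ± 0.0805 SE, adjusted p = 0.00829). These 2 differences were apart by 0.80 on the log2 scale (adjusted p = 0.000989). Without the second CD133- array of the same line the value was 0.31 in SNU-216 (adjusted p = 0.0559) and -0.38 in SNU-601 (adjusted p = 0.0536). In KATO-III GRHL2 was 1.18-fold lower in CD133+ cells (-0.24 ± 0.0805 SE, adjusted p = 0.0442). Of the 12 fits that each left out an array, that call was kept in 3, those without the second KATO-III CD133+ array or either SNU-216 CD133- array, and the lowest size came without the first KATO-III CD133+ array (-0.12, adjusted p = 0.269).

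CDH1, the E-cadherin gene that GRHL2 is known to activate, was set beside it after its values were seen. CDH1 was lower in CD133+ cells of KATO-III (log2 difference -0.70, limma adjusted p = 6.83e-05) and SNU-601 (-0.25, adjusted p = 0.0362) and higher in those of SNU-216 (0.30, adjusted p = 0.0109). The mean intensities of CDH1 in CD133+ and CD133- cells were 4221.3 and 6857.8 in KATO-III, 8125.8 and 6617.4 in SNU-216 and 9259.8 and 11038.0 in SNU-601. Its signs were those of GRHL2 in all 3 lines. By line the order differed, since CDH1 was highest in SNU-601 and GRHL2 in SNU-216. The claudin gene CLDN3, also named after its values were seen, had -1.02 in KATO-III, -0.81 in SNU-216 and 0.60 in SNU-601. Its signs were opposite to those of GRHL2 in SNU-216 and SNU-601. A link of GRHL2 to either gene was not tested.

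**Figure D2:**
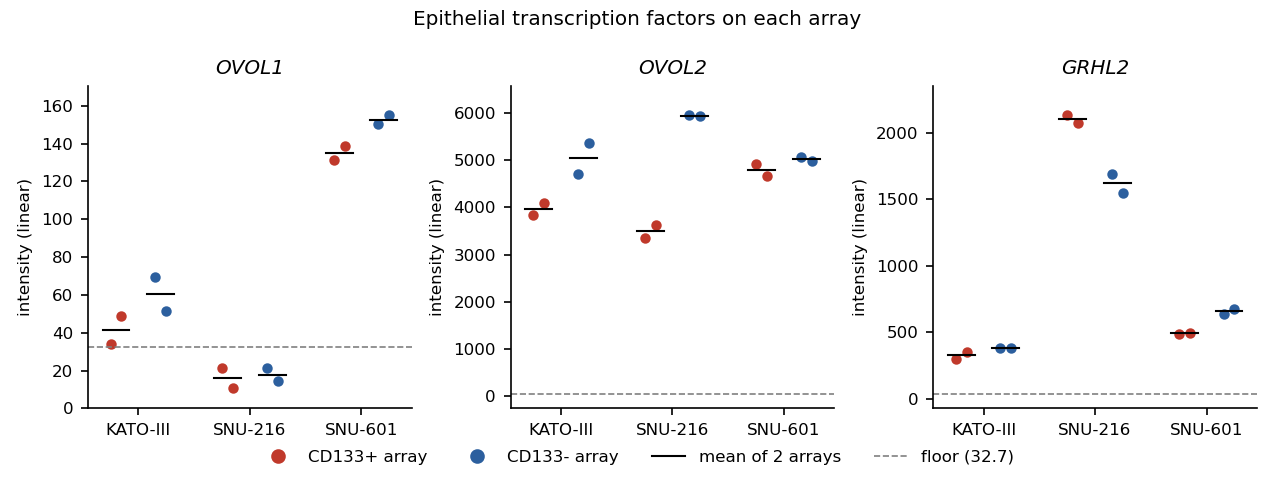
Linear intensity (vertical axis) of OVOL1, OVOL2 and GRHL2 on each array of the 3 lines, with CD133+ arrays in red, CD133- arrays in blue, the mean of 2 arrays as a bar and the floor of 32.7 as a dashed line. OVOL2 is lower in the CD133+ fraction of KATO-III and SNU-216, GRHL2 is highest in SNU-216 and higher there in CD133+ cells, and OVOL1 is under the floor in SNU-216.

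The members called between fractions numbered 4 of 6 in KATO-III (OVOL1, OVOL2, GRHL2 and VIM), where 39.3% of all tested genes were called. They numbered 3 in SNU-216 (OVOL2, GRHL2 and TWIST1), against 28.6% of all tested genes, and 1 in SNU-601 (GRHL2), against 16.4%. When each line was fitted on its own 4 arrays, OVOL2 (adjusted p = 0.0275) and TWIST1 (adjusted p = 0.0386) were still called in SNU-216 and no member was in KATO-III or SNU-601. The fraction difference itself differed between lines for 4 members, OVOL2 (adjusted p = 0.00126), GRHL2 (0.00115), TWIST1 (0.000868) and VIM (0.0311), where 44.4% of all tested genes were called in limma's F-test. For TWIST1 the other lines were at the floor except on 1 array and could show no lower value. Its F-test therefore restates the difference in SNU-216 and compares no measured differences between lines. The call of VIM was lost without either KATO-III CD133+ array, the second KATO-III CD133- array or any SNU-216 array (adjusted p 0.0527 to 0.0806). For VIM the difference in KATO-III exceeded that in SNU-216 by 0.50 on the log2 scale (adjusted p = 0.0179).

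Between lines, 5 of 6 members were called for KATO-III against SNU-216, where 62% of all tested genes were called, and the exception was OVOL2. For SNU-216 against SNU-601 the count was also 5, against 56.5%, again without OVOL2. For KATO-III against SNU-601 it was 3, OVOL1, OVOL2 and GRHL2, against 58.6%. The counts that involve SNU-216 include SNAI2 and TWIST1, which met the filter through that line, and OVOL1, which met it through the other lines. With most genes called between lines, the counts set nothing apart about the members.

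**Figure D3:**
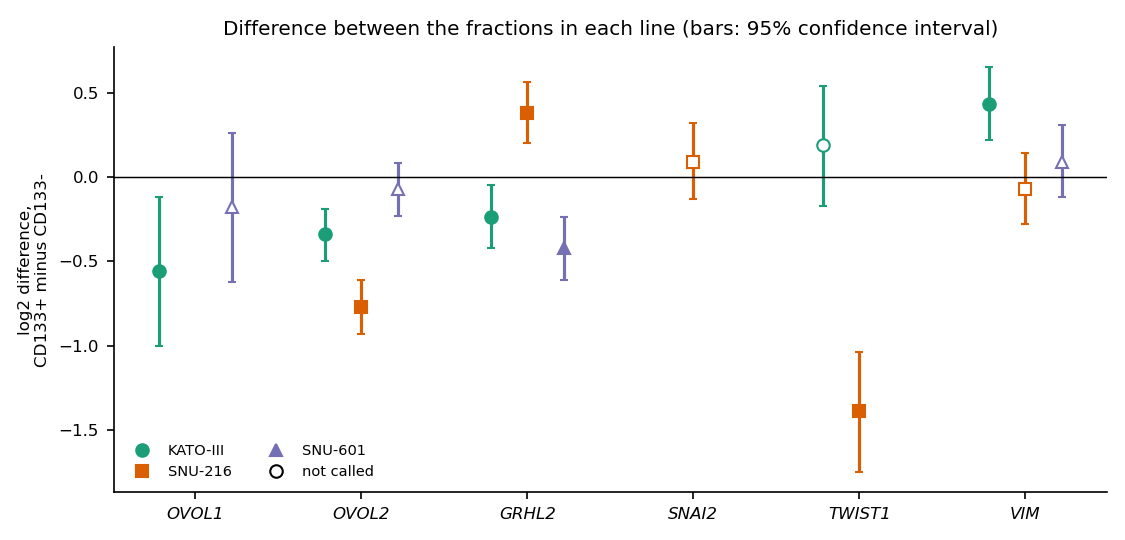
Log2 difference, CD133+ minus CD133-, of the 6 tested members in each line (vertical axis), with bars for the 95% confidence interval; filled symbols were called, open ones were not, and a line where both fractions lay under the floor is left out. OVOL2 lies below 0 in KATO-III and SNU-216, TWIST1 is at -1.39 in SNU-216, and GRHL2 changes side between SNU-216 and the other lines.

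Other epithelial transcription factors were described as a list of 17, of which 16 were in the table and 15 tested. Over the 3 lines 0 were called higher and 2 lower in CD133+ cells, against 2.62% and 2.11% of all tested genes, with a median log2 difference of -0.04 beside -0.013 for all genes. ELF3, an ETS factor of secretory and intestinal epithelium, was lower by 0.54 ± 0.0934 (SE, limma adjusted p = 0.0157) and was called lower in each line (differences -0.91, -0.42 and -0.28 in KATO-III, SNU-216 and SNU-601). CDX2, the intestinal homeobox factor, fell by 0.40 (adjusted p = 0.0321), and its calls were in KATO-III and SNU-601 (-0.50 in each), while in SNU-216 1 of its 4 arrays was under the floor. With population as a random block neither was called over the lines (adjusted p = 0.177 for ELF3 and 0.288 for CDX2).

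Between lines the same list had 12 of 15 genes higher and 1 lower in KATO-III than in SNU-216, against 30.3% and 31.7% of all tested genes, with a median log2 difference of 2.07 beside -0.03. Against SNU-601, SNU-216 had 9 of 15 lower and 2 higher, against 27.1% and 29.4%, with a median of -1.14 beside 0.011. Named after their values were seen, FOXA1 and FOXA2, forkhead factors of gut endoderm, were lower in SNU-216 than in KATO-III by 3.32 each, and CDX2 was lower there by 5.37 with its values under the floor set to it. GRHL2 thus ran against the direction of most of the list in these comparisons.

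Epithelial genes, many of them known targets of ZEB and SNAI repression, were described as a list of 32, of which 31 were tested and 28 exceeded the floor on all 12 arrays. GRHL1 stands in this list and in the previous one. The EPCAM gene has an entry under each of 2 symbols and was counted once, under the older symbol TACSTD1. In KATO-III the TACSTD1 entry had means of 8792.0 in CD133+ and 8150.3 in CD133- cells. The entry left out, EPCAM, ran the other way there, with 12887.4 and 14060.9. Over the lines 1 was called higher and 5 lower in CD133+ cells, against 2.62% and 2.11% of all tested genes. The median log2 difference was -0.12 beside -0.013 for all genes. The tight junction gene TJP3 (-0.64, limma adjusted p = 0.0124), the desmosome genes DSP (-0.57, adjusted p = 0.035) and JUP (-0.37, adjusted p = 0.0164), and the adaptor AP1M2 (-0.33, adjusted p = 0.038) were lower. The desmosomal plakophilin PKP2 was higher (0.39, adjusted p = 0.0233). With population as a random block none of these 5 was called (adjusted p 0.17 to 0.297).

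By line, CD133+ cells of KATO-III had 5 of the 31 epithelial genes called higher and 11 called lower, against 18.7% and 20.6% of all tested genes. In SNU-216 the counts were 5 and 10, against 14.6% and 14%, and in SNU-601 4 and 6, against 8.59% and 7.78%. Most of this list exceeded the floor on all 12 arrays, as 11674 of the 20147 tested genes did. The shares of all tested genes are therefore not matched to the list in brightness. Between KATO-III and SNU-216 the list was split, with 12 higher and 14 lower in KATO-III, against 30.3% and 31.7% of all tested genes, and a median of -0.01 beside -0.03. In both comparisons with SNU-601 more of the list was called higher in SNU-601. SNU-216 had 5 higher and 17 lower than SNU-601, against 29.4% and 27.1%, with a median of -0.24 beside 0.011. KATO-III had 8 higher and 20 lower than SNU-601, against 28.7% and 29.9%, with a median of -0.42 beside -0.015. CLDN7 itself, with the E-boxes shown above, was lower in SNU-216 than in KATO-III by 0.23 (adjusted p = 0.000736) and lower than in SNU-601 by 0.37 on the log2 scale (adjusted p = 2.72e-05), with mean intensities from 10245.3 to 14422.4 over the 6 populations. Its fraction differences were not called in any line. CDH1, RBM35A and CLDN3 of the same list were higher in SNU-216 than in KATO-III, by 0.45, 2.22 and 1.26 on the log2 scale. Against SNU-601, SNU-216 was lower in CDH1 by 0.46 and higher in RBM35A and CLDN3 by 0.87 and 3.47. They too were named after their values were seen, and a link of SNAI2 to any of these genes was not tested.

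Mesenchymal genes other than VIM and FN1 were described as a list of 37, of which 29 were tested and 6 exceeded the floor on no array. Over the lines 2 were called higher and 0 lower in CD133+ cells, against 2.62% and 2.11% of all tested genes. The median log2 difference was 0.05 beside -0.013 for all genes. CALD1, the actin-binding protein caldesmon, was higher by 0.70 (limma adjusted p = 0.0174), and the integrin subunit ITGAV by 0.43 (adjusted p = 0.0312). Neither was called with population as a random block (adjusted p = 0.143 and 0.232). CALD1 was called higher in each line (1.19, 0.69 and 0.23 in KATO-III, SNU-216 and SNU-601), as VIM was in KATO-III alone.

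By fraction within the lines the mesenchymal list did not run one way. In CD133+ cells of KATO-III 4 of 29 were called higher and 9 lower, against 18.7% and 20.6% of all tested genes. In those of SNU-216 the counts were 9 and 4, against 14.6% and 14%, and in those of SNU-601 they were 7 and 0, against 8.59% and 7.78%. In KATO-III the actin-binding genes TAGLN (-1.76) and TPM2 (-0.86) were lower while CALD1 was higher, and in SNU-601 TAGLN (1.10) and TPM2 (0.96) were higher. TAGLN and TPM2 were named after their values were seen.

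Between lines, 20 of 29 mesenchymal genes were lower and 3 higher in KATO-III than in SNU-216, against 31.7% and 30.3% of all tested genes, with a median of -1.55 beside -0.03. SNU-216 had 18 higher and 6 lower than SNU-601, against 29.4% and 27.1%, with a median of 1.45 beside 0.011. Genes above the floor in SNU-216 alone met the filter through that line and are among those counted. Among those named after their values were seen, TGFBI, a matrix protein induced by TGF-beta, exceeded the floor in SNU-216 alone, with population means of 7504.5 and 6808.3. WNT5A, a noncanonical Wnt ligand, also did so, with means of 1910.3 and 1885.8. AXL, a receptor tyrosine kinase, was 6.75 higher on the log2 scale in SNU-216 than in KATO-III and 2.14 higher than in SNU-601. SPARC, COL3A1, COL6A3, MMP2, POSTN and SERPINE2 were under the floor on all 12 arrays, as FN1 was.

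**Figure D4:**
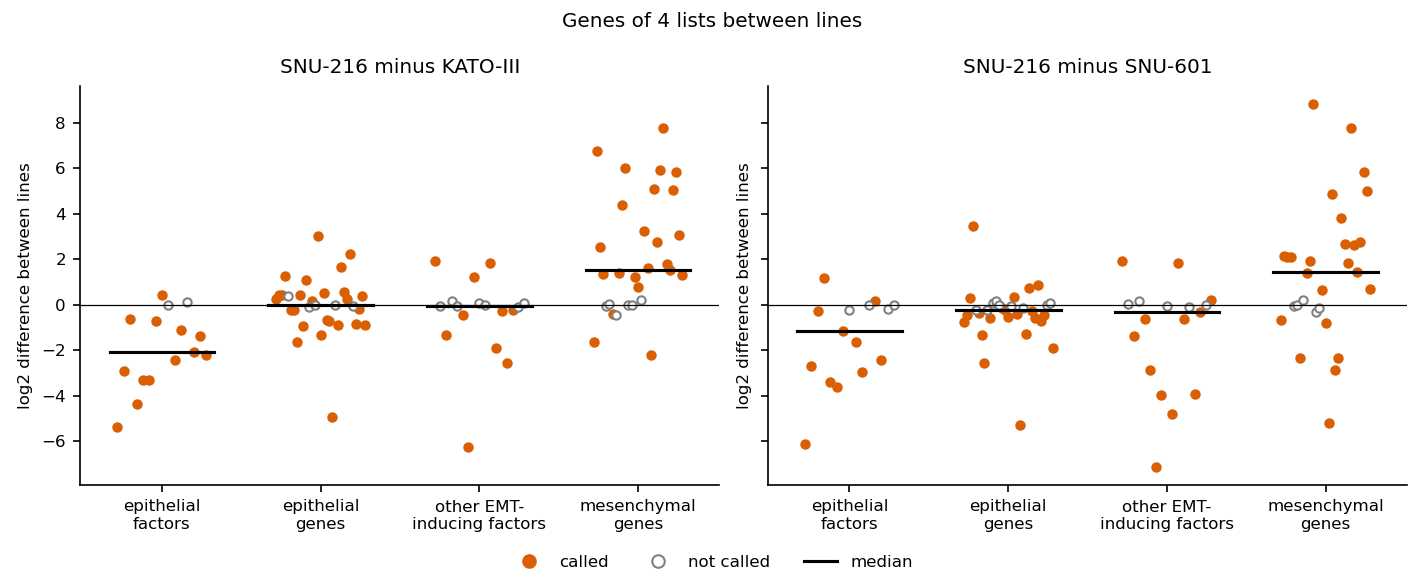
Log2 difference between lines (vertical axis) for each tested gene of 4 lists, SNU-216 minus KATO-III on the left and SNU-216 minus SNU-601 on the right; orange points were called, open grey points were not, and bars are list medians. Most mesenchymal genes lie above 0 and most epithelial factors below 0, while the epithelial genes and the other EMT-inducing factors lie on both sides.

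Other EMT-inducing transcription factors formed a list of 22, of which 17 were tested, and TWIST2, KLF8, TBX2 and LEF1 exceeded the floor on no array. Over the lines 1 was called higher in CD133+ cells, the SRY-box factor SOX4 (0.24, limma adjusted p = 0.0433, and 0.407 with population as a random block), and 0 lower, with a median of -0.06. Of all tested genes 2.62% were called higher and 2.11% lower. Between lines 7 of 17 were called higher and 3 lower in KATO-III than in SNU-216, against 30.3% and 31.7% of all tested genes. SNU-216 had 3 higher and 9 lower than SNU-601, against 29.4% and 27.1%. The medians were 0.07 and -0.33, beside -0.03 and 0.011 for all genes. PRRX2, named after its values were seen, exceeded the floor in SNU-601 alone, with population means of 1094.3 and 784.7. ID2, a helix-loop-helix inhibitor of E proteins, the partners of TWIST1, was under the floor in SNU-216 and had population means from 2031.3 to 5158.2 in the other lines. ID2 was named after its values were seen.

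Cofactors and stability regulators of the EMT factors formed a list of 25, of which 21 were tested. Over the lines 1 was called higher in CD133+ cells, the Polycomb gene BMI1 (0.23, limma adjusted p = 0.0418), and 1 lower, GSK3B (-0.31, adjusted p = 0.0157), a kinase known to mark SNAI1 for degradation. The median was 0.04 beside -0.013 for all tested genes, of which 2.62% were called higher and 2.11% lower. GSK3B was called lower in each line, by values between -0.37 and -0.27. With population as a random block neither was called over the lines (adjusted p = 0.307 for BMI1 and 0.246 for GSK3B).

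The genes most like each member were taken by Pearson's r of log2 level over the 6 population means, among 11673 genes above the floor on all 12 arrays. For OVOL2 they were HS.552357 (r = 0.979), GPC6 (0.976), RBBP4 (0.975), HS.117299 (0.973) and LOC649210 (0.967), and 13 genes exceeded an r of 0.95. For GRHL2 they were APEH and TSPYL4 (0.995 each) and ANKRD36B, PDGFB and HERC4 (0.994 each), of 215 genes above 0.95. For VIM they were CENPBD1 (0.999), RNF115 and PACS1 (0.996 each), C12ORF24 (0.995) and LOC653171 (0.993), of 189 genes above 0.95. With 6 points from 3 lines, r follows the line differences that GRHL2 and VIM share with many genes, and it is given as a description.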

How the data were processed

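Per the labels, RNA of sorted cells was hybridized to Illumina HT-12 v3 arrays, and BeadStudio is named in the submitters' processing notes. The authors deposited quantile-normalized intensity values, linear and background-subtracted, 1 row per gene symbol (34688 rows, 93 empty). How the background was estimated and probes combined is not given in the sources used here. From these, values under 32.7 were set to that floor and log2 was taken, which understates changes of dim genes. Tests covered 20147 genes that exceeded the floor on 2 or more arrays, by limma 3.58.1 under R 4.3.3 (eBayes with trend, Benjamini-Hochberg over all of them). The fit over the lines had line as a block (8 residual degrees of freedom), and line and within-line values came from a mean per population (6). SD and SE rest on 2 arrays per population, whose number limits the precision. The SE of a within-line difference uses a single spread per gene shared by the 6 populations. Populations wholly at the floor add no spread to it, as for SNAI2, TWIST1 and OVOL1. Members, lists and tests were chosen with earlier results of these data known. From each list at most 5 genes were named by rule, the largest differences over the lines among those called, or the largest ranges where none was. Genes named outside it are marked as chosen after their values were seen or as under the floor. On simulated data with 200 of 11674 genes changed by 1, limma recovered 98.5% over the lines, 88.5% in KATO-III and 68.5% for the interaction. Alternatives covered the floor, filter, centring, trend, blocks and each array left out. Tables used Python 3.11.15 with pandas 2.3.3 and numpy 2.4.6, and figures matplotlib 3.10.9.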

Additional observations from a re-analysis of the deposited data

Results flagged for a closer look

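For 4 members the difference between CD133+ and CD133- cells differed between the lines in limma's F-test of the interaction. For OVOL2 the adjusted p was 0.00126, with log2 differences of -0.34 in KATO-III, -0.77 in SNU-216 and -0.07 in SNU-601. For GRHL2 it was 0.00115, with -0.24, 0.38 and -0.42 in the same order. For TWIST1 it was 0.000868, with a difference of -1.39 in SNU-216, 0.19 in KATO-III with 1 array above the floor, and all SNU-601 arrays under the floor. With the other lines at the floor, this value restates the SNU-216 difference of TWIST1 and is no comparison of lines. For VIM it was 0.0311, with 0.43, -0.07 and 0.09. Over the settings tried the adjusted p stayed at or below 0.00708 for OVOL2, 0.00701 for GRHL2 and 0.0324 for TWIST1, and reached 0.0806 for VIM.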

How the results depend on the processing

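No called result on the members changed sign under an alternative, and the OVOL2 difference between KATO-III and SNU-216, not called at -0.03, was 0.02 without the first KATO-III CD133- array. The OVOL2 call over the lines was lost without a filter on dim genes (-0.40, adjusted p = 0.123), with arrays centred on their medians (-0.37, 0.0597), without the trend (-0.40, 0.0675), with population means first (-0.40, 0.796) and with population entered as a random effect (random block, -0.40, 0.246), each leaving 0 members called. Over all genes the last 2 called 0 and 1 (PROM1), with 992 and 2297 at an unadjusted p under 0.05. In KATO-III 2 members were called with an offset of 100, without the filter, with median centring and with quantile normalization repeated, and 0 on its own 4 arrays. In SNU-601 2 were called with a floor of 100 and 0 on its own 4 arrays. Between SNU-216 and each other line 3 were called when 6 arrays had to exceed the floor, which removes SNAI2 and TWIST1 from the test. Leaving out each array in turn gave 0 to 1 members called over the lines, 2 to 4 in KATO-III, 2 to 3 in SNU-216, 0 to 1 in SNU-601, 3 to 4 for the interaction, and 5, 2 to 4 and 5 to 6 for KATO-III against SNU-216, KATO-III against SNU-601 and SNU-216 against SNU-601, with OVOL2 over the lines between -0.44 and -0.33. Of 15 neighbour pairs of OVOL2, GRHL2 and VIM, 10 were called and 6 to 9 without an array, with 6 without the first KATO-III CD133+ or the second SNU-601 CD133- array. The causes were not tested.

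Replicate numbers did not pair the arrays, since 15 correlations of same-numbered deviations lay between -0.0116 and 0.0276. With the replicate number as a block, OVOL2 over the lines had -0.40 (adjusted p = 0.0672) with 0 members called, KATO-III had 2, and 471 genes were called over the lines in place of 953.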

Other observations

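TGF-beta ligands, receptors and SMADs, upstream of SNAI and ZEB factors in many epithelia, formed a list of 16, of which 14 were tested. None was called between the fractions over the lines by limma, where 4.73% of all tested genes were, so those with the largest range are named. TGFB2, a TGF-beta ligand, exceeded the floor in SNU-216 alone, where SNAI2 and TWIST1 did, with population means of 3985.5 and 3093.4. SMAD4, the common partner of the receptor SMADs, was lower in SNU-216 than in KATO-III by 3.75 on the log2 scale (adjusted p = 4.83e-10). TGFBR3, a co-receptor, was under the floor in SNU-216 and above it in the other lines. The inhibitory SMAD6 was lower in SNU-216 than in KATO-III by 1.70, and the ligand BMP7 exceeded the floor in SNU-601 alone.

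All 5 RNA-binding and splicing genes linked to EMT were tested, and 0 were called between the fractions over the lines, against 4.73% of all tested genes. QKI, an RNA-binding protein raised in many mesenchymal cells, was under the floor in KATO-III, with population means of 482.9 and 449.6 in SNU-216 and 95.9 and 49.4 in SNU-601. RBM9, CUGBP1 and PTBP1 were also higher in SNU-216 than in KATO-III, by 0.81, 0.80 and 0.15 on the log2 scale, and HNRNPM was not called between these lines.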
